A study of Mus musculus with 19 samples.

Results

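Calcineurin is the calcium- and calmodulin-dependent phosphatase of the heart muscle cell, and the 8 genes described here encode its subunits, proteins that bind and restrain it, and the transcription factors it activates. They are Ppp3ca and Ppp3cb (catalytic subunits), Ppp3r1 (regulatory subunit), Rcan1 and Rcan2 (regulators of calcineurin), Myoz2 (calsarcin-1) and Nfatc3 and Nfatc4 (NFAT factors). The genes were chosen by name, with earlier results of these data known. Each was read from array probe sets that the platform annotation assigns to exactly 1 gene symbol, and the brightest probe set on average over the 19 arrays stood for the gene while its other probe sets were set beside it. These are 8 of 18194 genes with such a probe set and 8 of the 10733 genes tested, and all 8 passed the filter on low values (log2 signal above 4 in at least 5 arrays). Together they had 21 probe sets, of which 17 passed that filter.

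RNA of the left ventricle came from 19 male C57BL/6 mice that were operated at 7 weeks of age and killed 4 weeks later. The groups were 7 mice with aortic banding and heart failure, 7 mice with aortic banding and no heart failure, and 5 sham-operated mice, with 1 Affymetrix array per mouse. All 3 groups shared strain, sex, age at surgery and time after surgery, and none carried a labelled genetic change or drug. Aortic banding narrows the aorta and makes the left ventricle eject against a higher pressure. The labels do not state the criterion for heart failure or where on the aorta the band lay. The labelled index of left ventricular weight over tibia length averaged 8.97 ± 0.61 in banded mice with heart failure, 6.98 ± 0.44 in banded mice without it and 5.14 ± 0.26 in sham mice (SD, n = 7, 7 and 5).

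In cardiac muscle, a sustained rise in calcium activates calcineurin through calmodulin. Active calcineurin removes phosphate groups from NFAT proteins in the cytoplasm, which then enter the nucleus and act with GATA4 and MEF2 factors on genes of hypertrophic growth. Rcan proteins bind calcineurin and inhibit it, and a short Rcan1 transcript that starts inside the gene is itself a target of NFAT, which is why Rcan1 mRNA is widely read as a marker of calcineurin activity. Calsarcin-1 holds calcineurin at the Z-disc, where it also binds alpha-actinin, telethonin and filamin C. None of these arrays measured phosphatase activity, protein or the location of NFAT.

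Because the internal Rcan1 start is the classical NFAT target, the 250 bases before both annotated starts of the gene are shown, taken from RefSeq on build GRCm38.p6, minus strand, with capitals marking each GGAAA (the core of NFAT binding sites) read on either strand. The first window lies at chr16:92400079-92400328 and precedes the internal start, and the second lies at chr16:92466170-92466419 and precedes the upstream start.
Rcan1 internal start: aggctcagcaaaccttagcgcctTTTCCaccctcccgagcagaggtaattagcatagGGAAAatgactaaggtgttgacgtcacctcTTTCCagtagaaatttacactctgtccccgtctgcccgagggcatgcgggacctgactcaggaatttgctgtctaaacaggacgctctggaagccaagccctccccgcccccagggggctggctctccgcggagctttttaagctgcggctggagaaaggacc
Rcan1 upstream start: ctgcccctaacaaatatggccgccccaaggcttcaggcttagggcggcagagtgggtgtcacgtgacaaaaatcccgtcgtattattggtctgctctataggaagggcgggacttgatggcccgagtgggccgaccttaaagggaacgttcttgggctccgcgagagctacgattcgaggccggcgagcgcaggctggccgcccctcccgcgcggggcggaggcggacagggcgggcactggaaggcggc
The window before the internal start held 3 GGAAA cores, whose first bases lie 227, 193 and 163 bases before the start. At least 3 cores occur in 6.39% of 32851 RefSeq mouse windows of the same length. It also held 1 TGANTCA (the AP-1 motif, in lower case here, not overlapping a core), a motif found in 6.75% of the windows. The window before the upstream start held no core, whereas 55.6% of all windows hold at least 1. Promoter windows were found for 7 of the 8 genes, and 6 of their 11 windows held a GGAAA. The windows of Nfatc4 and Ppp3cb also held 3 cores each, and 1 Rcan2 window held 1 AP-1 motif, so neither count was particular to Rcan1. A match in letters is a description and not a site, and these arrays cannot tell from which start the Rcan1 RNA came.

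Rcan1 was the only gene of the 8 that rose in both banded groups against sham. Nfatc4 rose with heart failure against sham, and the other 6 genes did not pass the test in any comparison on their brightest probe set. Against sham, 2 of 8 genes passed in banded mice with heart failure and 1 of 8 in banded mice without it, and none passed between the banded groups (limma, Benjamini-Hochberg adjusted p under 0.05 over all 10733 genes). Over all genes tested, 39.3%, 17.4% and 9.48% passed in these comparisons, so the shares of the 8 genes that passed were no higher than the background. With the arrays set to equal medians, 5 of 8 passed with heart failure against sham, 2 of them higher and 3 lower (Ppp3cb -0.18, Ppp3r1 -0.19 and Myoz2 -0.14). That rescaling also shifted the median difference of all genes by -0.068, so small differences of any gene moved downward. The number of all genes that passed there stayed within 1.5 times of that in the main fit. In the main fit, the median log2 difference of the 8 genes was 0.01, 0.03 and 0.00, beside 0.01, 0.02 and -0.01 over all genes tested. Between the banded groups, where 0 of 8 passed after adjustment, Rcan1 and Nfatc4 were the 2 genes with an unadjusted limma p under 0.05, and Rcan1 passed in 1 alternative, with array weights (adjusted p = 0.0265). In bulk tissue, fewer cells of a type and less RNA per cell cannot be told apart. Each array is a separate mouse by its label, and p-values measure the spread between these mice.

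**Figure D1:**
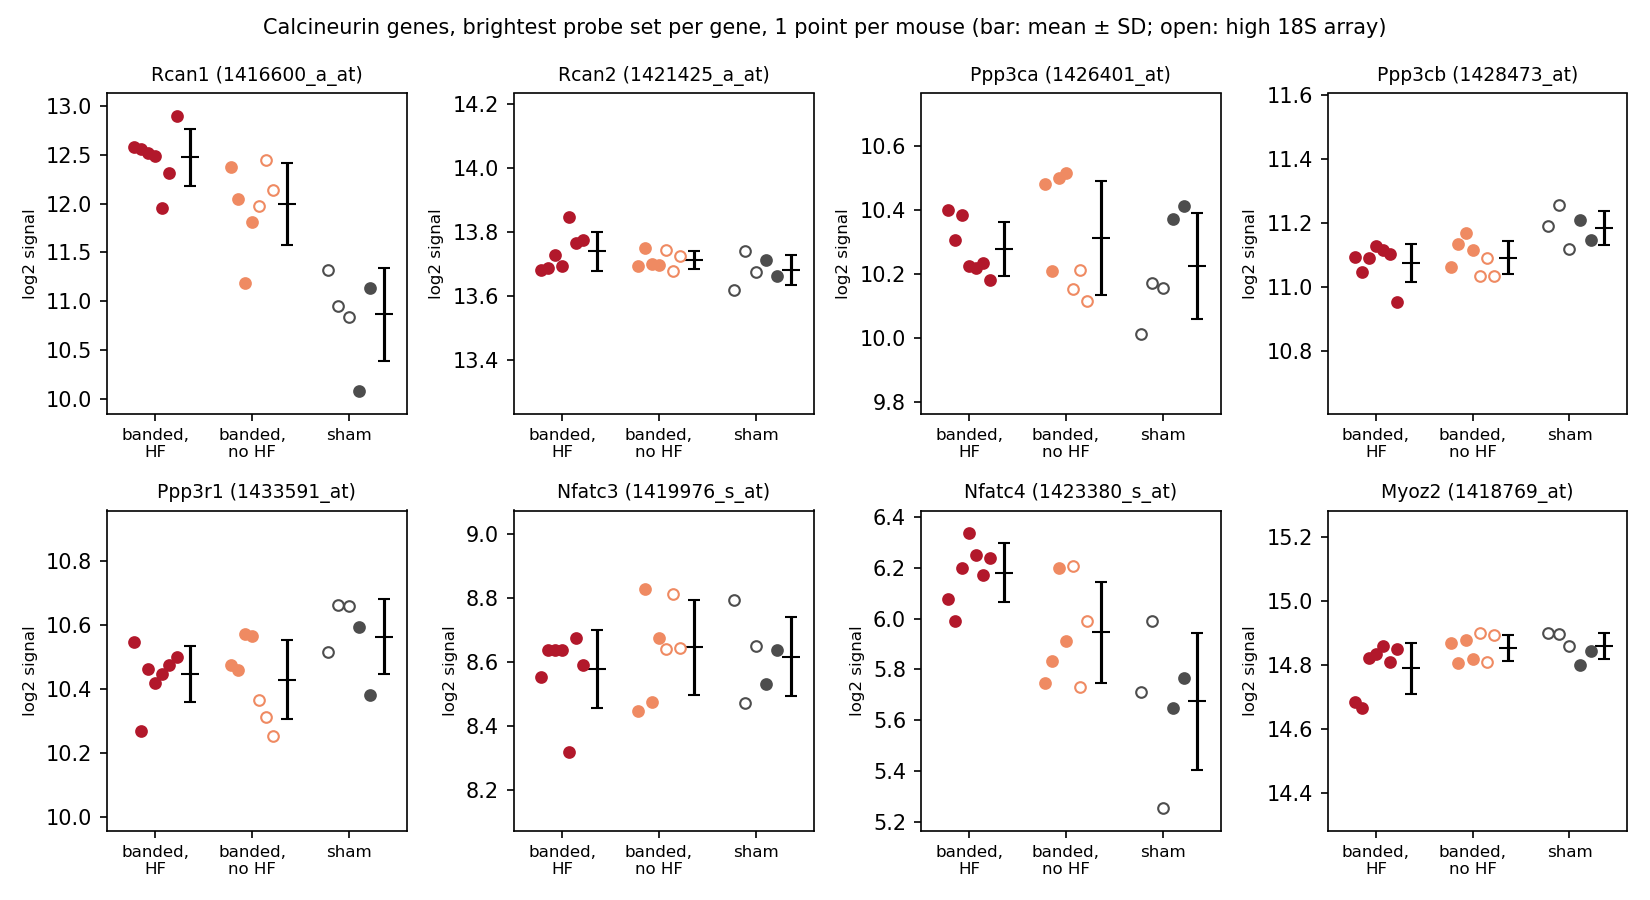
Log2 signal of each mouse (points) on the brightest probe set of the 8 genes, with the group mean ± SD beside the points; axes differ in level and, for Rcan1 and Nfatc4, in span. Open points are arrays with a high 18S control. All 7 mice with heart failure lie above every sham mouse for Rcan1, and the groups overlap for the other genes.

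Rcan1 (1416600_a_at) had log2 signals with a lowest value of 11.95, a median of 12.51 and a highest value of 12.90 in banded mice with heart failure. In banded mice without heart failure the lowest was 11.19, the median 12.04 and the highest 12.45. The 5 sham mice had 11.32, 10.95, 10.84, 10.08 and 11.14. Every mouse with heart failure thus lay above every sham mouse, as did 6 of 7 banded mice without heart failure, and the banded groups overlapped each other. Rcan1 was 3.04-fold higher in banded mice with heart failure than in sham (log2 difference 1.60 ± 0.22 SE, limma adjusted p = 1.41e-05) and 2.18-fold higher in banded mice without heart failure (1.13 ± 0.22 SE, adjusted p = 0.00164). Among the 10733 genes it ranked 141st and 94th by the size of the rise. Between the banded groups the difference was 0.48 (95% interval 0.06 to 0.89, limma adjusted p = 0.134). In the order of heart failure over no heart failure over sham, only the lower step thus passed after adjustment.

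The second Rcan1 probe set (1416601_a_at) gave the same order with larger differences. Its signal ran from 11.08 through a median of 11.51 to 12.12 in banded mice with heart failure, and from 10.09 through 10.83 to 11.51 in those without. The sham mice had 9.72, 9.37, 9.45, 8.80 and 10.29. Here too every mouse with heart failure exceeded every sham mouse. The log2 differences were 2.01 ± 0.24 SE and 1.36 ± 0.24 SE against sham (limma adjusted p = 4.61e-06 and 0.00101 over all probe sets tested) and 0.65 ± 0.22 SE between the banded groups (adjusted p = 0.0760). The suffix of both names marks probe sets whose probes can match several transcripts of the same gene, so neither separates the Rcan1 forms.

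The animal numbers in the labels were split into 3 runs where neighbouring numbers lay more than 50 apart. Each run holds mice of all 3 groups, and Rcan1 was compared within each. In the run of lowest numbers, the banded mice without heart failure were all numbered below the other mice, with a gap just under that cut. Comparisons with these mice in that run thus do not set mice numbered side by side against each other. Banded mice with heart failure exceeded sham by 1.53, 2.42 and 1.25 on the log2 scale in the runs of lowest, middle and highest numbers. Banded mice without heart failure exceeded sham by 1.14, 1.53 and 0.95. Both banded groups lay wholly above the sham mice of their own run in all 3 runs, although the 2 later runs hold 1 sham mouse each. With the run as a block the differences were 1.68 and 1.18 (limma adjusted p = 9.13e-06 and 7.38e-04). Heart failure minus no heart failure was 0.38, 0.89 and 0.30, and with the block 0.50 (adjusted p = 0.0798).

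**Figure D2:**
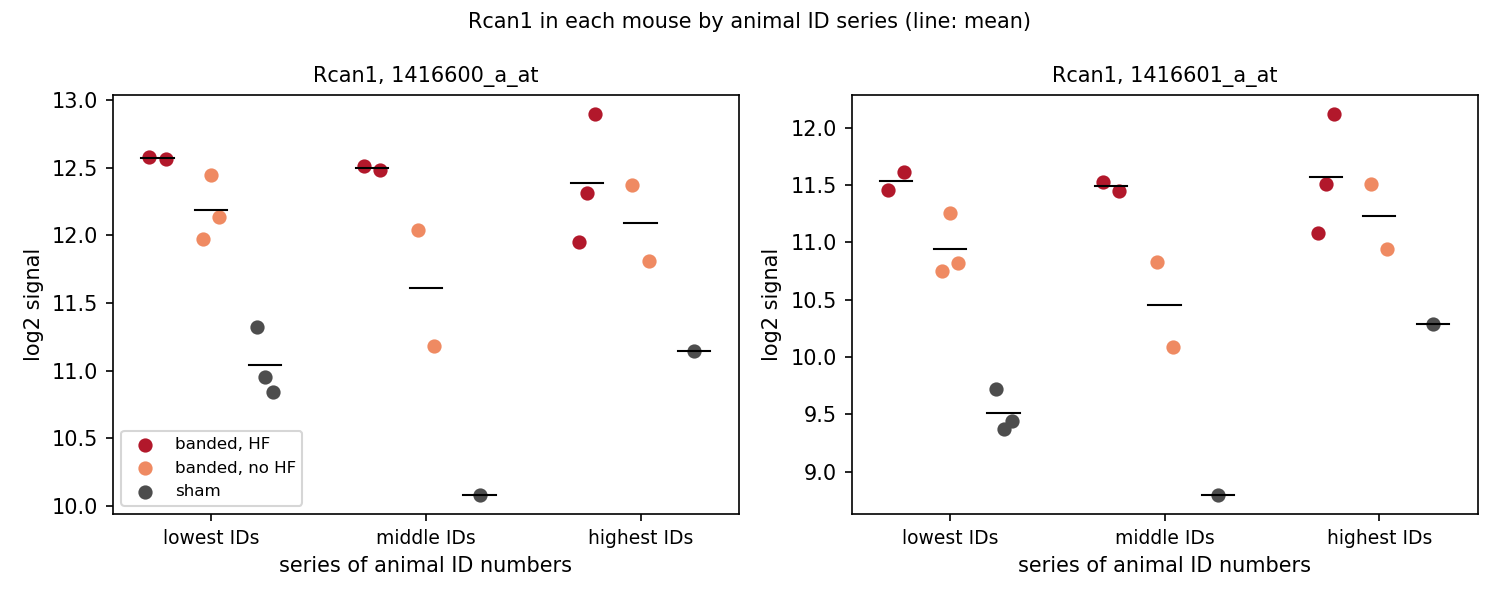
Log2 signal of both Rcan1 probe sets in each mouse, arranged by the 3 runs of mouse numbers in the labels; lines are group means within a run. On 1416600_a_at banded mice with heart failure exceed sham by 1.53, 2.42 and 1.25 in the 3 runs.

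Technical measures also differed between these groups. The 18S control was high on 0 arrays of banded mice with heart failure, 3 arrays of banded mice without it and 3 sham arrays, all 6 from the run of lowest numbers. In that run the arrays of mice with heart failure were all low and those of the other mice all high. Heart failure and the 18S set thus cannot be told apart within it, for any gene compared by run. The difference between the 3′ and 5′ actin controls, a measure of RNA integrity, was 0.661 to 0.905 in banded mice with heart failure, 0.672 to 0.898 in banded mice without it and 0.943 to 1.02 in sham, so both banded groups lay below sham. With this measure as a covariate Rcan1 differed from sham by 1.82 and 1.34 (limma adjusted p = 3.97e-04 and 0.0101). Because no banded array reached the sham range of the measure, that fit cannot separate RNA integrity from banding. With the 18S set as a block the differences were 1.83 and 1.19 (adjusted p = 2.12e-05 and 7.46e-04). On the low-18S arrays alone, with 2 sham mice left, the difference was 1.86 with heart failure (adjusted p = 0.00131) and 1.24 without it (adjusted p = 0.0642, 4 mice).

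Rcan2, which like Rcan1 binds and inhibits calcineurin, stayed within the spread of the groups. On its brightest probe set (1421425_a_at) it ran from 13.68 through a median of 13.73 to 13.85 in banded mice with heart failure and from 13.68 through 13.70 to 13.75 in those without. Values in the 5 sham mice were 13.62, 13.74, 13.67, 13.71 and 13.66. The groups overlapped, and the log2 differences from sham were 0.06 (95% interval -0.03 to 0.15) and 0.03 (-0.06 to 0.12), with limma adjusted p = 0.309 and 0.666. The other probe set (1450243_a_at) gave 0.10 and 0.24 (adjusted p = 0.596 and 0.254), with a wider interval of -0.18 to 0.38 for the first and -0.05 to 0.52 for the second.

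The catalytic subunit gene Ppp3ca, which encodes calcineurin A alpha, showed no change past the threshold on any of its 3 probe sets. On the brightest (1426401_at) it ran from 10.18 through 10.24 to 10.40 in banded mice with heart failure and from 10.12 through 10.21 to 10.52 in those without. Sham signals were 10.01, 10.17, 10.16, 10.37 and 10.41. All 3 groups overlapped, with log2 differences from sham of 0.05 (95% interval -0.13 to 0.24) and 0.09 (-0.10 to 0.27). On 1438478_a_at the difference of banded mice with heart failure from sham was 0.21, with an unadjusted limma p of 0.0338 and an adjusted p of 0.0790.

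For Ppp3cb, which encodes calcineurin A beta, the probe sets disagreed. The brightest (1428473_at) ran from 10.95 through 11.09 to 11.13 in banded mice with heart failure and from 11.03 through 11.09 to 11.17 in those without. The sham mice had 11.19, 11.26, 11.12, 11.21 and 11.15. The sham mice were at the upper end, with 6 of 7 mice with heart failure and 5 of 7 without it below every sham mouse. The log2 differences were nevertheless only -0.11 ± 0.05 SE and -0.09 ± 0.05 SE and did not pass (limma adjusted p = 0.0683 and 0.171). The difference with heart failure passed in 4 of 25 alternatives. Among them were no filter, arrays normalized again by quantiles and equal array medians (limma adjusted p = 0.0208, 0.0310 and 0.00693). Over all fits it ran from -0.21 to -0.09.

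A dimmer Ppp3cb probe set (1433835_at) separated both banded groups from sham. It ran from 8.32 through 8.82 to 8.98 in banded mice with heart failure and from 8.50 through 8.73 to 8.91 in banded mice without it. Sham mice gave 9.21, 9.11, 9.18, 9.02 and 9.14. All 7 mice of each banded group lay below every sham mouse, and the signal was 1.30-fold lower with heart failure (log2 difference -0.38 ± 0.09 SE, limma adjusted p = 0.00462) and 1.32-fold lower without it (-0.40 ± 0.09 SE, adjusted p = 0.00830). A still dimmer one (1428474_at) differed from sham by -0.44 ± 0.16 SE with heart failure (adjusted p = 0.0384) and -0.36 ± 0.16 SE without it (adjusted p = 0.134). On 1427468_at the differences were 0.09 and -0.03, with adjusted p = 0.693 and 0.921, and 1446149_at lay at the floor of the values. The sources used here do not say which part of the transcript each probe set reads, and the part of transcript forms in this disagreement was not tested. Between the banded groups the differences of these 4 probe sets lay between -0.07 and 0.12, and none passed.

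**Figure D3:**
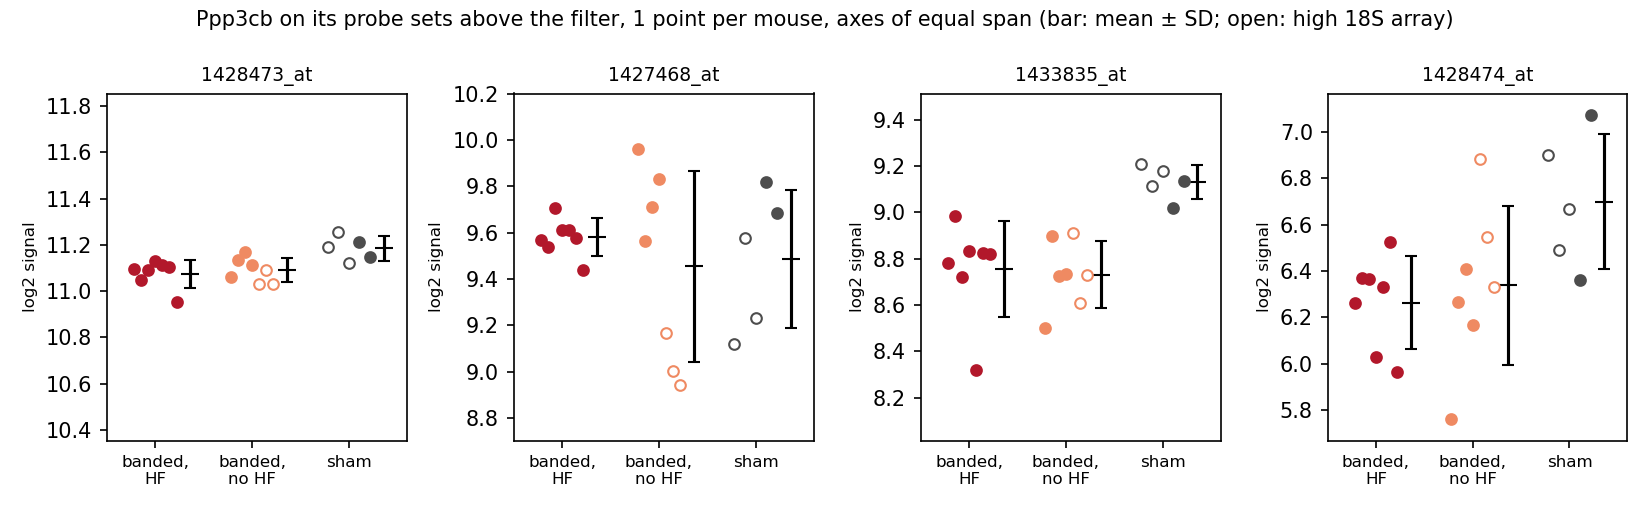
Log2 signal of each mouse on the 4 Ppp3cb probe sets above the filter, on axes of equal span, with group mean ± SD; open points are arrays with a high 18S control. On 1433835_at both banded groups lie wholly below the sham mice, while on 1427468_at the 3 groups overlap and the open points are mostly low.

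Ppp3r1, the calcium-binding regulatory subunit calcineurin B, did not pass in any comparison. Its brightest probe set (1433591_at) ran from 10.27 through 10.46 to 10.55 in banded mice with heart failure and from 10.25 through 10.46 to 10.57 in those without. In sham the values were 10.52, 10.66, 10.66, 10.59 and 10.38. The log2 differences from sham were -0.12 (95% interval -0.26 to 0.03) and -0.13 (-0.28 to 0.01), with limma adjusted p = 0.188 and 0.194. Within the runs of mouse numbers they changed sign, at -0.20, -0.15 and 0.09 with heart failure and -0.30, -0.08 and 0.14 without it. A second probe set (1421786_at) was dim, at a mean of 4.40, 4.43 and 4.52 in the 3 groups, and 1 further probe set shared with another gene was not used.

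Myoz2, the calsarcin of heart and slow muscle, has a single probe set (1418769_at) near the top of the array's range. It ran from 14.66 through 14.82 to 14.86 in banded mice with heart failure and from 14.80 through 14.87 to 14.90 in those without. The sham mice had 14.90, 14.89, 14.86, 14.80 and 14.84. The log2 differences from sham were -0.07 (95% interval -0.17 to 0.03) and -0.01 (-0.11 to 0.09), with limma adjusted p = 0.253 and 0.943. The lowest 2 mice, both with heart failure, came from the run of lowest numbers, where the difference from sham was -0.21, against 0.03 and -0.002 in the other runs. How far so bright a probe set can still register a change was not tested.

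Nfatc4, the NFAT factor also called NFAT3, rose 1.42-fold in banded mice with heart failure against sham. On 1423380_s_at its log2 signal ran from 5.99 through 6.20 to 6.34 in banded mice with heart failure and from 5.73 through 5.91 to 6.21 in those without. Sham signals were 5.71, 5.99, 5.25, 5.65 and 5.77. Of the 7 mice with heart failure, 6 exceeded every sham mouse and the lowest had the same value as the highest sham mouse, while banded mice without heart failure spread over both ranges. The log2 difference from sham was 0.51 ± 0.11 SE with heart failure (limma adjusted p = 0.00145) and 0.27 ± 0.11 SE without it (adjusted p = 0.0991), and the banded groups differed by 0.23 ± 0.10 SE (adjusted p = 0.150). Within the runs of mouse numbers the first difference was 0.38, 0.62 and 0.45. This is a dim probe set whose suffix marks probes that can match more than 1 transcript, and the other 3 Nfatc4 probe sets lay at or near the floor, so no second probe set bears on the rise.

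Nfatc3 did not change past the threshold on either probe set. The brightest (1419976_s_at) ran from 8.32 through 8.64 to 8.68 in banded mice with heart failure and from 8.45 through 8.65 to 8.83 in those without. For sham they were 8.80, 8.47, 8.65, 8.53 and 8.64. The log2 differences from sham were -0.04 (95% interval -0.21 to 0.13) and 0.03 (-0.14 to 0.20). On 1452497_a_at banded mice without heart failure differed from sham by 0.30 ± 0.11 SE, with an unadjusted limma p of 0.0112 and an adjusted p of 0.0651, and mice with heart failure by 0.10.

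**Figure D4:**
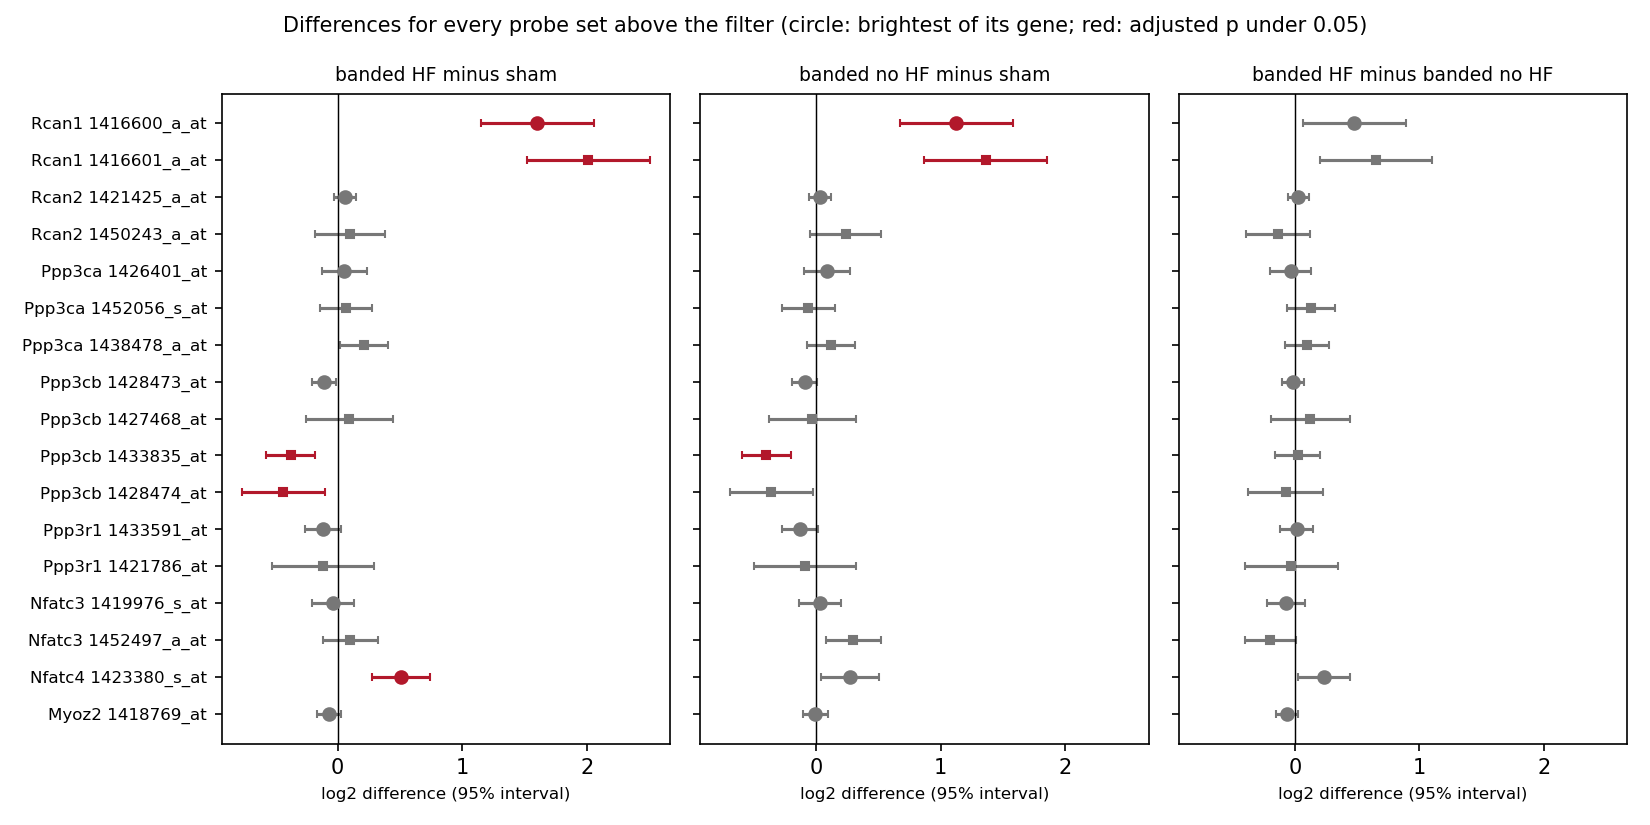
Log2 difference with its 95% interval for all 17 probe sets above the filter in the 3 comparisons; circles are the brightest probe set of a gene, squares the others, and red marks an adjusted p under 0.05. Both Rcan1 probe sets lie at 1.60 and 2.01 in the left panel, and all others lie within 0.51 of zero.

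Marker genes of cell types were read in the same 3 comparisons, in which 39.3%, 17.4% and 9.48% of all genes tested passed. Of 6 fibroblast markers, 6 rose in banded mice with heart failure and 4 in those without, against sham, and 3 rose between the banded groups. Their summed signal (log2) was 15.84 to 16.19 in banded mice with heart failure, 15.48 to 15.97 without it and 15.39 to 15.65 in sham. Of 8 cardiomyocyte markers, 1 rose (Mybpc3) and 4 fell (Myh6, Tnni3, Ryr2 and Pln) with heart failure against sham, and the summed signal was 18.47 to 18.56, 18.50 to 18.59 and 18.54 to 18.64 in the same order of groups. Of 6 endothelial markers, Pecam1 and Tie1 rose with heart failure and Tie1 without it against sham, and Cdh5 was lower with heart failure than without, at a summed signal of 12.46 to 12.94, 12.69 to 13.03 and 12.47 to 12.61. Of 6 smooth muscle and pericyte markers, Tagln and Pdgfrb rose with heart failure and Pdgfrb without it, at 14.71 to 15.01, 14.69 to 15.03 and 14.53 to 14.70. All 8 cardiomyocyte markers, which check the labelled tissue, had group medians from 14.08 to 16.69 (log2), while the summed atrial markers varied widely within every group, at 8.14 to 15.4, 10.5 to 14.8 and 9.38 to 13.7, and 1 of the 4 (Myl7) passed, lower with heart failure than without (log2 difference -4.93, limma adjusted p = 0.0457). The part of cell makeup in the Rcan1 and Nfatc4 differences was not tested.

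The rest of the pathway was read from 8 lists of 57 genes, of which 45 were tested, chosen with earlier results known. Against sham, 10 of the 45 rose and 8 fell in banded mice with heart failure, and 8 rose and 2 fell in banded mice without it. Between the banded groups 1 was higher and 6 were lower with heart failure. Among all genes, 20.4% rose and 18.9% fell, 10.8% rose and 6.53% fell, and 3.83% were higher and 5.65% lower in these comparisons. In fits that left out 1 mouse, used the run or the 18S set as a block, took the actin measure as a covariate, rescaled the arrays or kept only low-18S arrays, 0 of these calls changed sign. Of the 18 calls with heart failure against sham, 8 passed in every such fit and 15 without any single mouse, while 7 were lost with the 18S set as a block, 7 with the actin covariate, 8 on the low-18S arrays and 2 after rescaling. Of the 10 calls without heart failure against sham, 5 passed without any single mouse, 8 were lost with the actin covariate, 3 after rescaling and all 10 on the low-18S arrays (4 against 2 mice), and 0 with the 18S block. All 7 calls between the banded groups were lost without some single mouse and on the low-18S arrays (7 against 4 mice), 5 of them with the 18S block, 1 after rescaling and 0 with the actin covariate. The 18S control was high on no array of the first of these groups and on 3 of the second. The actin measure did not overlap between banded and sham arrays. Keeping or losing a call against sham with that covariate thus does not separate RNA integrity from banding.

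The choice of probe set also mattered, since 28 of the 45 genes had a further probe set above the filter. Of the 19 of these that did not pass with heart failure against sham on their brightest probe set, 12 passed on another one (adjusted over all probe sets), 7 of them higher and 6 lower, with Dyrk1a in both directions on different probe sets. Without heart failure against sham it was 5 of 21, and between the banded groups 2 of 23. Of the 9, 7 and 5 such genes that passed on the brightest, another probe set passed for 3, 2 and 0, and none passed in the opposite direction.

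The largest change in these lists was in Tbc1d10c, which encodes carabin, an inhibitor of calcineurin and of Ras that lymphoid cells express. Its single probe set (1454850_at) ran from 4.52 through 6.09 to 6.42 in banded mice with heart failure and from 6.34 through 6.84 to 7.23 in those without. The sham mice had 8.08, 8.18, 8.61, 7.93 and 8.08. No banded mouse of the 14 reached the lowest sham mouse, and the banded groups overlapped only slightly. Tbc1d10c was 4.73-fold lower with heart failure (log2 difference -2.24 ± 0.26 SE, limma adjusted p = 2.47e-06) and 2.55-fold lower without it (-1.35 ± 0.26 SE, adjusted p = 0.00155), and 1.85-fold lower in the first than in the second (-0.89 ± 0.23 SE, adjusted p = 0.0235). The last of these did not pass without mouse 5 of the banded mice without heart failure (adjusted p = 0.0597) or on the low-18S arrays, and the second was lost on the low-18S arrays and with the actin covariate. Rcan1 and Tbc1d10c, both inhibitors, thus changed in opposite directions in both banded groups. Of 6 macrophage and leukocyte markers, 0 passed in any comparison, where 39.3%, 17.4% and 9.48% of all genes tested passed. Their summed signal was 11.68 to 12.32 with heart failure, 11.82 to 12.22 without it and 11.62 to 12.96 in sham. None of these markers is particular to lymphoid cells, so they do not measure such cells. The part of lymphoid cells in the Tbc1d10c difference was not tested.

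Among the other inhibitors, anchors and binding proteins of calcineurin, 5 of 8 tested rose and 2 fell in banded mice with heart failure against sham. Over all genes tested, 20.4% rose and 18.9% fell in this comparison, and the list was chosen with earlier results known. Lmcd1, a LIM protein known from mice to act with calcineurin in hypertrophy, differed by 0.63 ± 0.12 SE (limma adjusted p = 4.21e-04), and Cib1, which anchors calcineurin at the sarcolemma, by 0.52 ± 0.09 SE (adjusted p = 2.71e-04). Cabin1, an inhibitor of calcineurin, rose by 0.45 with heart failure and 0.49 without it (adjusted p = 0.00817 and 0.0122). Fkbp1a, the FK506-binding protein that also binds the ryanodine receptor, rose by 0.32 against sham (adjusted p = 8.56e-04) and was the single gene of the lists higher with heart failure than without (0.23, adjusted p = 0.0259). Rcan3, the third member of the Rcan family, rose by 0.36 with heart failure (adjusted p = 0.0233). Akap5, a scaffold that holds calcineurin and protein kinase A, fell by 1.19 on the log2 scale against sham and by 1.01 against banded mice without heart failure (adjusted p = 0.0107 and 0.0497), and was below the filter on 1 array. The call of Fkbp1a between the banded groups was lost in 3 of the 14 fits without 1 mouse, and that of Akap5 in 11. Both were also lost with the 18S set as a block and on the low-18S arrays, and that of Fkbp1a with equal array medians. The 3 other Fkbp1a probe sets differed between the banded groups by 0.03 to 0.13 and did not pass. Against sham, the calls of Rcan3, Cabin1 and Akap5 with heart failure were lost with the 18S block and on the low-18S arrays. Those of Cabin1 and Akap5 were lost with the actin covariate too, that of Rcan3 with both rescalings, and that of Cabin1 without heart failure with the actin covariate and on the low-18S arrays. The third catalytic subunit gene Ppp3cc differed from sham by 0.20 and 0.16 (adjusted p = 0.255 and 0.444).

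Of the 3 other NFAT factors, Nfat5, which responds to osmotic stress and does not depend on calcineurin, rose by 0.36 with heart failure and 0.30 without it (limma adjusted p = 0.00337 and 0.0254), while a dimmer Nfat5 probe set differed by -0.72 and -0.64 without passing (adjusted p = 0.281 and 0.422). Nfatc1 differed from sham by -0.02 with heart failure and Nfatc2 by -0.07 and, without it, -0.24, and neither passed. A dim Nfatc2 probe set, at a mean of 4.94, 5.20 and 4.40 in the 3 groups, was higher than sham by 0.55 with heart failure and 0.81 without it (limma adjusted p = 0.0411 and 0.0122 over all probe sets), while the remaining one differed by -0.05 and 0.01. Among 11 kinases that phosphorylate NFAT and so oppose calcineurin, Mapk14 (p38 alpha) fell in both banded groups. Its log2 signal ran from 9.99 through 10.11 to 10.31 in banded mice with heart failure, from 10.15 through 10.40 to 10.60 in those without, and from 10.71 through 10.82 to 10.87 in sham. Neither banded group overlapped the sham mice, and the differences were -0.66 ± 0.08 SE (adjusted p = 7.05e-06), -0.39 ± 0.08 SE (adjusted p = 0.00348) and, between the banded groups, -0.27 ± 0.08 SE (adjusted p = 0.0340). Mapk9 (JNK2) fell by 0.25 on the log2 scale with heart failure (adjusted p = 0.0494), and Gsk3b (GSK3 beta) rose by 0.39 without heart failure (adjusted p = 0.0146) and differed by 0.24 with it (adjusted p = 0.0684). In fits without 1 mouse, the Mapk9 call was lost in 9 of 12, the Gsk3b call in 1 of 12 (sham mouse 2), the Nfat5 call without heart failure in 2 of 12 (mouse 7 of that group and sham mouse 1), and the Mapk14 call between the banded groups in 8 of 14. On the low-18S arrays all of these were lost, as was the Mapk14 call without heart failure. The Mapk9 call was also lost with the run as a block and with the actin covariate, the Nfat5 call without heart failure with both rescalings, the Mapk14 call without heart failure with the actin covariate, and that between the banded groups with the 18S block. A dimmer Mapk14 probe set differed from sham by -0.54 with heart failure (adjusted p = 0.0122) and -0.38 without it (adjusted p = 0.109), and the dimmest by -0.13 and 0.01. Of 3 other Gsk3b probe sets, 0 passed without heart failure and 1 was higher with it (0.37, adjusted p = 0.0134). Csnk1d differed from sham by -0.09 with heart failure on its brightest probe set. Of its 4 others, 3 were higher, by 0.37, 0.56 and 0.36 (limma adjusted p = 0.00384, 0.00641 and 0.00607), and the last differed by -0.24 (adjusted p = 0.0885). With heart failure another probe set also passed higher for Csnk1a1, lower for Csnk1e and Mapk8, and in both directions for Dyrk1a.

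Among 7 nuclear partners, Mef2c, a transcription factor that binds beside NFAT, rose by 0.71 with heart failure and 0.58 without it (limma adjusted p = 0.00356 and 0.0273). Its 4 other probe sets differed from sham by -0.23 to 0.06 and none had an unadjusted limma p under 0.05, so the Mef2c rise rests on 1 of 5 probe sets. The class II histone deacetylases Hdac9 and Hdac5, which repress MEF2, fell by 0.81 and 0.26 on the log2 scale with heart failure (adjusted p = 0.00382 and 0.0396). Gata4 differed from sham by 0.04 and 0.31 and did not pass. Mef2a, another MEF2 factor, differed by -0.03 and -0.13 on its brightest probe set, while a further one fell by 0.78 with heart failure and 0.41 without it, on the log2 scale (adjusted p = 2.35e-05 and 0.0162). Of 4 calmodulin kinase genes tested, Camk2a and Camk2g fell with heart failure by 0.65 and 0.48 against sham (adjusted p = 2.26e-04 and 0.00835) and by 0.36 and 0.45 against banded mice without it (adjusted p = 0.0362 and 0.0279). On the other Camk2g probe set the difference from sham was 0.02 (adjusted p = 0.877). Camk2d, the main CaM kinase II gene of the heart, differed from sham by 0.05 and -0.04, and a dim probe set of it by -1.28 with heart failure (adjusted p = 0.0238). Without 1 mouse the Hdac5 call was lost in 5 of 12 fits, the Mef2c call without heart failure in 4 of 12, and the Camk2a and Camk2g calls between the banded groups in 9 and 4 of 14. With the 18S set as a block the calls of Mef2c, Hdac9 and Camk2g with heart failure against sham and that of Camk2g between the banded groups were lost. With the actin covariate those of Hdac9 and Camk2g with heart failure and Mef2c without it were lost, and on the low-18S arrays all of these and that of Camk2a between the banded groups.

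Of 5 calcium channel genes tested, Orai1, the pore of store-operated entry, rose by 0.31 with heart failure and 0.41 without it (limma adjusted p = 0.0377 and 0.0197), and Cacna1c, the L-type channel, differed by 0.10 and 0.30 without passing. A dimmer Cacna1c probe set fell by 0.42 on the log2 scale with heart failure against sham (adjusted p = 0.00164), and a dim Orai1 probe set differed by -0.33 and -0.07 without passing. Among 6 Z-disc partners of calsarcin, Flnc (filamin C) rose by 0.90 and 0.64 (adjusted p = 1.45e-05 and 0.00149) and Csrp3 (muscle LIM protein) by 0.24 and 0.16 (adjusted p = 0.00175 and 0.0415). Mypn (myopalladin) rose by 0.35 without heart failure (adjusted p = 0.0349) and was lower by 0.32 with heart failure than without it (log2 difference -0.32, adjusted p = 0.0470). Without 1 mouse the Orai1 call with heart failure was lost in 8 of 12 fits, the Csrp3 call without heart failure in 10 of 12, and the Mypn calls in 6 of 12 and 8 of 14. With the actin covariate the calls of Orai1 and Csrp3 in both banded groups and those of Flnc and Mypn without heart failure against sham were lost. With the 18S set as a block the Orai1 call with heart failure and the Mypn call between the banded groups were lost. Equal array medians ended the Orai1 call with heart failure and the Csrp3 and Mypn calls without it. On the low-18S arrays all of these were lost except that of Csrp3 with heart failure. Nppa, Nppb, Myh7 and Acta1, the fetal genes of hypertrophy that calcineurin signalling is known to raise, all 4 rose in both banded groups, by 1.11 to 3.52 with heart failure and 0.999 to 2.82 without it. The Rcan1 differences of 1.60 and 1.13 lay within those ranges. These 4 genes were chosen with earlier results known, and 20.4% and 10.8% of all genes tested rose in the same comparisons.

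**Figure D5:**
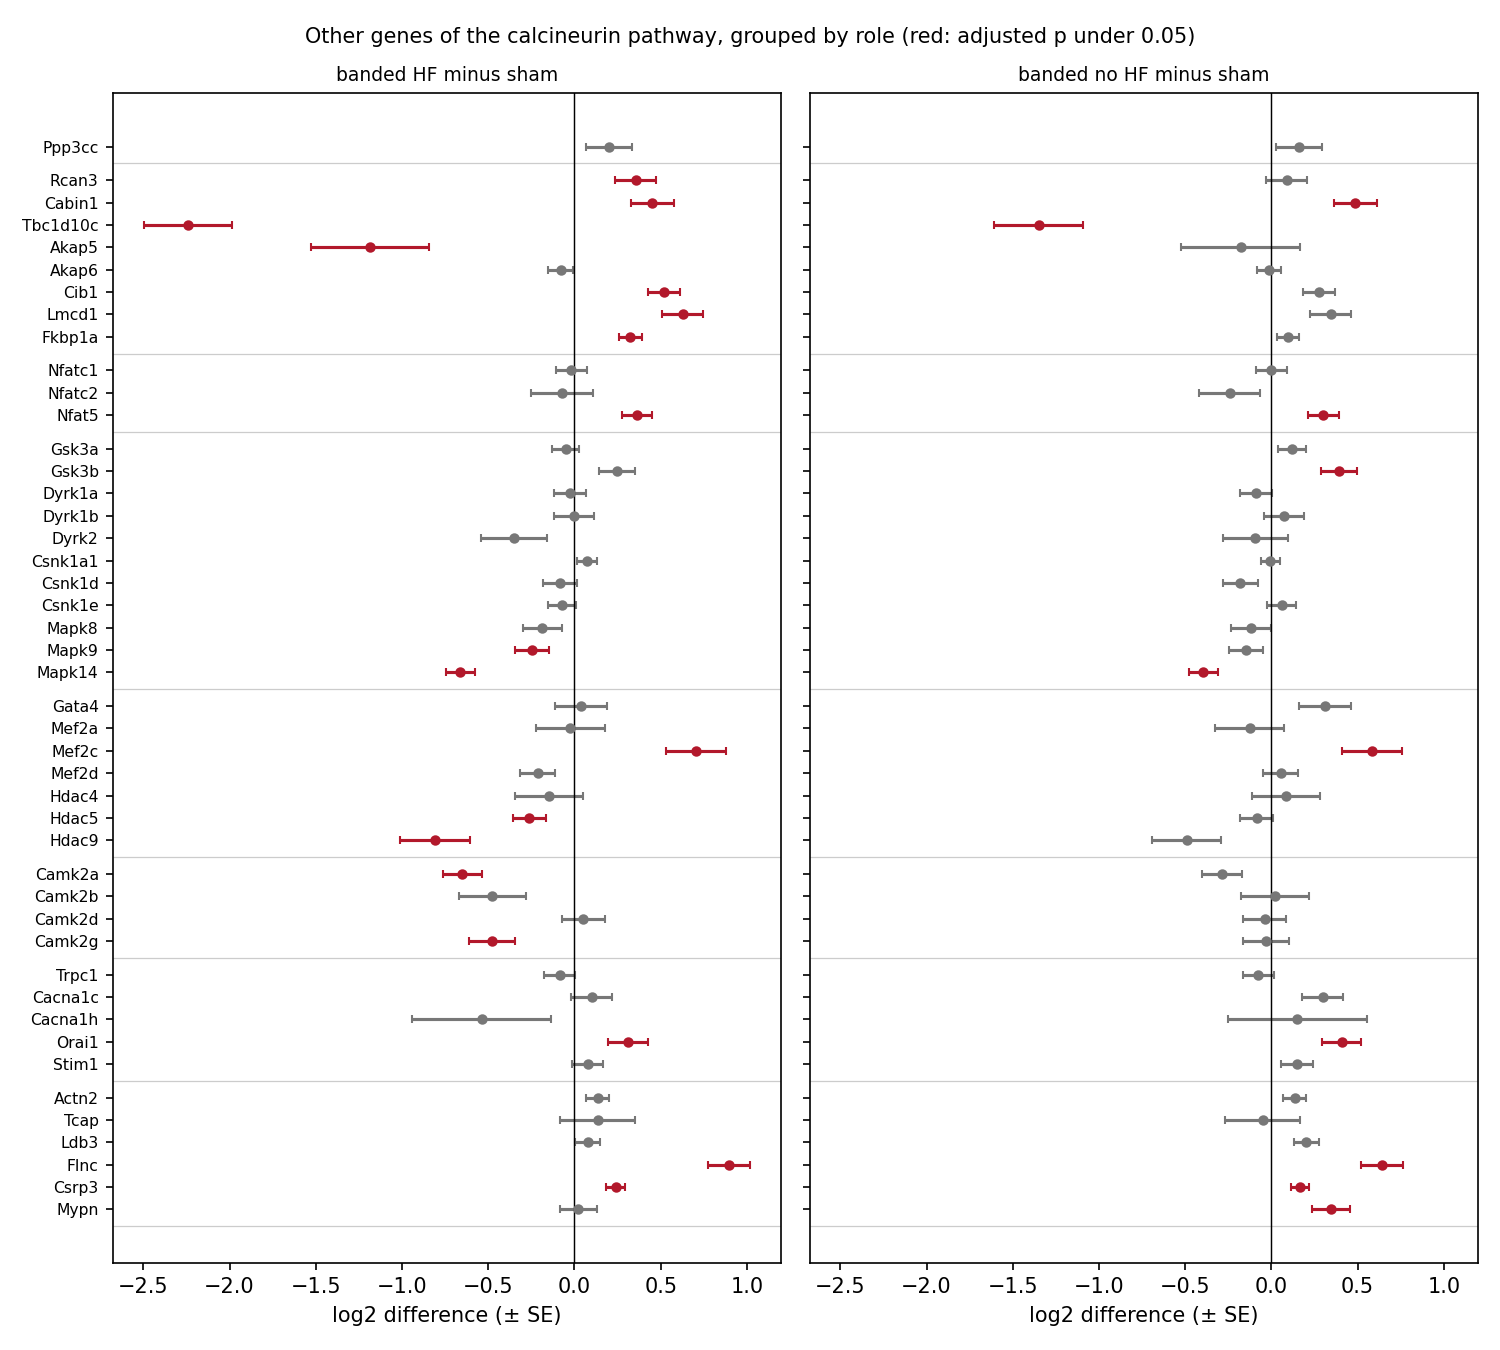
Log2 difference from sham (± SE) of the other tested pathway genes, grouped by role and separated by lines, in banded mice with heart failure (left) and without it (right); red marks an adjusted p under 0.05. Tbc1d10c lies farthest from zero in both panels, at -2.24 and -1.35.

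The genes whose signal followed each of the 8 most closely over the 19 arrays were found by Pearson's r, given as a description with r of the deviations from the group means after it. For Rcan1 they were Anxa5 (r = 0.94, within groups 0.74), a calcium-dependent phospholipid-binding protein, Hsp90aa1 (0.94, 0.77), a stress-inducible chaperone, and Uck2 (0.93, 0.71), a uridine-cytidine kinase. All 3 rose with heart failure against sham, by 0.72, 0.77 and 1.76. For Nfatc4 they were Sergef (0.84, 0.66), Dera (0.80, 0.52) and Usp28 (0.80, 0.54), which also rose, by 0.95, 1.09 and 0.33. For Ppp3cb they were Rcor3 (0.88, 0.80), Pcdh7 (0.84, 0.70) and Pnpt1 (0.83, 0.71), which fell by 0.25, 0.60 and 0.24 on the log2 scale. For Myoz2 they were Acot13 (0.85, 0.81), Mal (0.83, 0.82) and Emc2 (0.80, 0.77), which fell by 0.24, 0.39 and 0.16. The nearest genes were Sec14l1, Pafah1b1 and Bzw2 for Ppp3ca (r = 0.82, 0.81 and 0.80), Slc37a1, Pak6 and Mrtfb for Rcan2 (0.77, 0.75 and 0.74), Diablo, Cacna2d1 and Ociad1 for Ppp3r1 (0.79, 0.72 and 0.72), and Ddhd2, Timm9 and Fam53b for Nfatc3 (0.78, 0.78 and 0.77). Arrays share group, run and RNA quality, all of which enter these values. Because r over the 19 arrays includes the group differences, the directions against sham follow in part from the choice of genes and are no separate result.

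Within each banded group, the 8 genes were set against the labelled index of left ventricular weight, which gave 16 relations by exact two-sided permutation. Rcan2 in banded mice without heart failure was the only relation past the threshold after adjustment over the 16 (r = -0.93, exact permutation p = 0.00278, adjusted p = 0.0444, n = 7; Spearman's rho = -0.93, exact permutation p = 0.00675, adjusted p = 0.108). Without the 2 mice farthest from the median index r was -0.75. The relation rests on signals between 13.68 and 13.75, and the other Rcan2 probe set gave r = 0.66 (exact permutation p = 0.0929, n = 7), the opposite sign. For Rcan1, r was 0.51 with heart failure (exact permutation p = 0.242, n = 7; rho = 0.79, exact permutation p = 0.0480, adjusted p = 0.384), and 0.10 without the 2 farthest mice. In banded mice without heart failure Rcan1 had r = 0.10 (exact permutation p = 0.863, n = 7). With the index of lung weight, 0 of 16 relations had an exact permutation p under 0.05.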

How the data were processed

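RNA of the left ventricle of 19 mice was measured on Affymetrix arrays, 1 per mouse. The authors deposited log2 values. Per the submitters' processing notes these are from GCRMA (version not stated). GCRMA corrects background by probe sequence and draws the dimmest signals to a floor. Differences between values at that floor are lost, and how far those of dim probe sets above it are distorted was not tested. Arrays give no counting depth, and their number limits the precision. No 2 arrays held identical values.

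Probe sets were named through the platform annotation: 34958 of 45101 had 1 symbol, 932 several and 9211 were not listed there. Those above log2 4 in at least 5 arrays were kept, with the brightest per gene, which left 10733 genes. Groups were taken from the labels. All 3 comparisons came from a single limma 3.58.1 fit in R 4.3.3 (lmFit, contrasts.fit, eBayes, group only) with Benjamini-Hochberg adjustment and a threshold of 0.05; other probe sets were fitted together and adjusted over 18595. The fit was tested on simulated data. Weight relations used exact permutation of pairings (scipy 1.17.1); the weight indices are used as labelled, since their unit is uncertain.

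The 8 genes, the lists and the tests were chosen with earlier results of these data known. Named are all 8 genes with every probe set, the list genes with the largest changes past the threshold and any list gene where 5 or fewer passed, the hypertrophy genes, and the 3 genes closest to each by Pearson's r; list genes unchanged on their brightest probe set were named after their values were seen. Alternatives were filters, probe set choice, scaling, array weights, the trended and robust fit, single pairs of groups, animal number runs and the 18S set as blocks, the actin measure, and each mouse left out; 2 more were added after seeing the data. Promoters are RefSeq's.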

Additional observations from a re-analysis of the deposited data

Results flagged for a closer look

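Mouse 5 of the banded mice with heart failure lay apart from the other 6 of its group for 2 probe sets. Ppp3cb (1433835_at) had a log2 signal of 8.32 in this mouse, with the nearest of the others at 8.72 and the highest at 8.98. Nfatc3 (1419976_s_at) had 8.32 in the same mouse, with the nearest at 8.55 and the highest at 8.68. The gap exceeded the share of the group's range that the test of a single low or high value allows (0.604 and 0.656 of the range, above Dixon's 95% critical value for 7 mice). Of 51 groups checked 2 were marked, and chance marks about 1 in 20. Tbc1d10c was also lowest in this mouse, at 4.52, as was Rcan1 within the group, at 11.95 and 11.08 on its 2 probe sets. Rcan2 and Myoz2 were highest of the group in this mouse on their brightest probe sets, at 13.85 and 14.86. Its difference between the 3′ and 5′ actin controls, 0.661, was the lowest of the 19 arrays. Without this mouse, Rcan1 and Nfatc4 still passed with heart failure against sham.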

How the results depend on the processing

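Rcan1 and Nfatc4 passed with heart failure against sham in all 25 alternatives, at log2 differences of 1.41 to 1.86 and 0.39 to 0.59 and adjusted p up to 0.00643 and 0.0404. Rcan1 without heart failure against sham passed in 24 of 26 (0.93 to 1.34); on the low-18S arrays alone (1.24, adjusted p = 0.0642) and, added after seeing the data, without the run of animal numbers that holds the high-18S arrays (1.24, adjusted p = 0.104) only 4 against 2 mice remained. No result changed direction while past the threshold. With heart failure against sham, Ppp3cb passed in 4 of the 25 alternatives. The number of the 8 genes past the threshold in this comparison ran from 2 to 5. It was 5 with equal array medians, where Ppp3cb (-0.18), Ppp3r1 (-0.19) and Myoz2 (-0.14) also passed, and 2 in every fit without 1 mouse. Without heart failure against sham it was 2 with the mean of probe sets (Ppp3cb -0.22, adjusted p = 0.0137), 0 on the low-18S arrays alone (1 at an unadjusted limma p under 0.05), 2 on the high-18S arrays alone (added later; Ppp3r1 -0.30, adjusted p = 0.0352), 0 without the run that holds the high-18S arrays (1 unadjusted), and 1 to 2 without 1 mouse, with 2 without sham mouse 2 (Nfatc4 0.35, adjusted p = 0.0482). Between the banded groups it was 1 with array weights (Rcan1 0.53, adjusted p = 0.0265) and 0 in every fit without 1 mouse.

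Counts over all genes changed by over 1.5 times in these cases. With heart failure against sham 4220 genes became 2670 on the low-18S arrays, 2705 with the actin covariate and 2034 without the run that holds the high-18S arrays, and without 1 mouse 3538 to 4388. Without heart failure against sham 1865 became 343, 1199 and 212, and without 1 mouse 1185 (sham mouse 2) to 2200. Between the banded groups 1017 became 1914 with array weights, 149 on the low-18S arrays and 0 without the run (1465 at an unadjusted limma p under 0.05), and without 1 mouse 508 to 1146, with 599, 508 and 672 without mouse 2 of those with heart failure and mice 5 and 6 of those without. Fewer mice enter the restricted fits; other causes were not tested. Rescaling shifted the median of all genes by at most 0.068 in size. Nfatc4 was read from 1 dim probe set and Myoz2 from 1 near the top of the range. No paired analysis was possible because the labels number animals individually and give the groups no shared replicate numbers.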
